A study of Mus musculus with 10 samples.

Results

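The expression of 10 transcription factors and related nuclear proteins of motile ciliogenesis was followed in the nasal respiratory epithelium of mouse embryos, in which many cells carry motile cilia. The genes were Foxj1, Rfx1, Rfx2, Rfx3, Myb, Trp73, Foxn4, Fank1, Jazf1 and Tfcp2l1. They were taken by name, each from probe sets to which the platform's annotation gives that symbol alone, and all 10 were found, with 11 probe sets, among the 22180 genes so named on the array. The epithelium was laser-captured from paraffin sections at stage E16.5, and its RNA was hybridised to 1 Affymetrix array per embryo. The 5 triple knockout (TKO) embryos were labelled miR-449a/b/c-/- together with miR-34b/c-/- and miR-34a-/-, 2 of them female and 3 male (TKO 2, TKO 4 and TKO 5), and the 5 wild-type (WT) embryos were 4 females and 1 male (WT 3). The labels give neither the strain, the extent of the deletions nor whether embryos shared a litter, and no other allele or treatment is named. All values are log2 values after the authors' RMA normalisation, so that a difference of 1 is a doubling, and levels of different probe sets are not compared with each other.

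A multiciliated cell builds its many motile cilia in steps. The geminin-family proteins Gmnc and Mcidas act with E2F4 or E2F5 to start centriole amplification and switch on a second tier of transcription factors, among them Myb, p73, Foxj1 and the RFX proteins. FOXJ1 and the RFX factors then drive the genes of the axoneme, the microtubule core of the cilium, and of transport within it. The microRNAs of the miR-34 and miR-449 families are abundant in such cells and are known to act early in this programme. Their shared seed, bases 2 to 8, is in capitals in the mature strands below, credited to RefSeq (GRCm38.p6), which are shown because they are what the TKO embryos lack.
mmu-miR-34a-5p: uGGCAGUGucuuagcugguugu
mmu-miR-34b-5p: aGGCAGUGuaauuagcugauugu
mmu-miR-449a-5p: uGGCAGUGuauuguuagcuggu
mmu-miR-449c-5p: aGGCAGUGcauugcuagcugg
They lie at chr4:150068473-150068494 (plus strand), chr9:51103610-51103632 (minus strand), chr13:113037549-113037570 (plus strand) and chr13:113036008-113036028 (plus strand).

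At the Mir449 locus the genotypes separated by their labels, while the probe sets of the Mir34 genes showed no called difference. Mir449c lay between 3.16 and 4.39 on the TKO arrays and between 6.80 and 7.56 on the WT arrays (limma adjusted p = 3.37e-05 over all probe sets). Mir449b lay between 11.67 and 12.08 in TKO and between 12.13 and 12.23 in WT, and whether that probe set lies within the deletion is not given. Mir34a was dim on all arrays, from 3.09 to 3.75 in TKO and from 3.34 to 3.68 in WT, and checks nothing. Mir34b lay between 5.40 and 5.57 in TKO and between 5.61 and 5.98 in WT without passing (limma adjusted p = 0.166), and Mir34c overlapped, from 3.03 to 3.26 in TKO and from 3.20 to 3.39 in WT (limma adjusted p = 0.315). Over all 41345 probe sets the arrays correlated at 0.975 to 0.989. All 41 FOXJ1 target genes with a probe set named here had a mean over all arrays above the filter on dim genes at 4.58. That filter was passed by 16635 of all 22180 genes, so passing it does not identify a tissue. Markers of tissue under the epithelium had means above the filter as well. These were all 12 mesenchyme and all 10 skeletal muscle markers, 8 of 10 endothelial and 9 of 11 leukocyte markers. On single arrays a marker could lie below it: Myh3 of the muscle list had minima of 3.86 in TKO and 3.69 in WT. The log2 of the summed linear signal of the mesenchyme markers ran from 11.2 to 13.2 in TKO and from 11.5 to 13.2 in WT, that of the muscle markers from 8.51 to 9.58 in TKO and from 8.68 to 10.8 in WT. In captured tissue, fewer cells of a type and less RNA per cell cannot be told apart.

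Of the 10 factors, 2 rose in TKO epithelium, Myb and Foxn4, none fell and 8 did not pass an adjusted p of 0.05 (limma with sex as a covariate, Benjamini-Hochberg adjustment over 16635 genes). The count was 1 without TKO 3 or without WT 3, and 4 without WT 5. WT 3 is the only WT male, so without it the model with sex estimates the genotype change from females alone. At the same threshold 4.39% of all genes tested rose and 1.12% fell, 5.51% in all. At an unadjusted p below 0.05, 3 of the 10 were higher (Foxj1 beside the 2 that rose) and 2 were lower (Rfx2 and Fank1), against 20.9% of all genes in either direction. The median log2 change over the 10 was 0.06, against -0.00052 over all genes tested. TKO and WT arrays were fully apart for 1 of the 10, Foxn4, which was higher. Among all genes 7.6% were apart in this way, 5.54% as higher and 2.07% as lower.

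**Figure D1:**
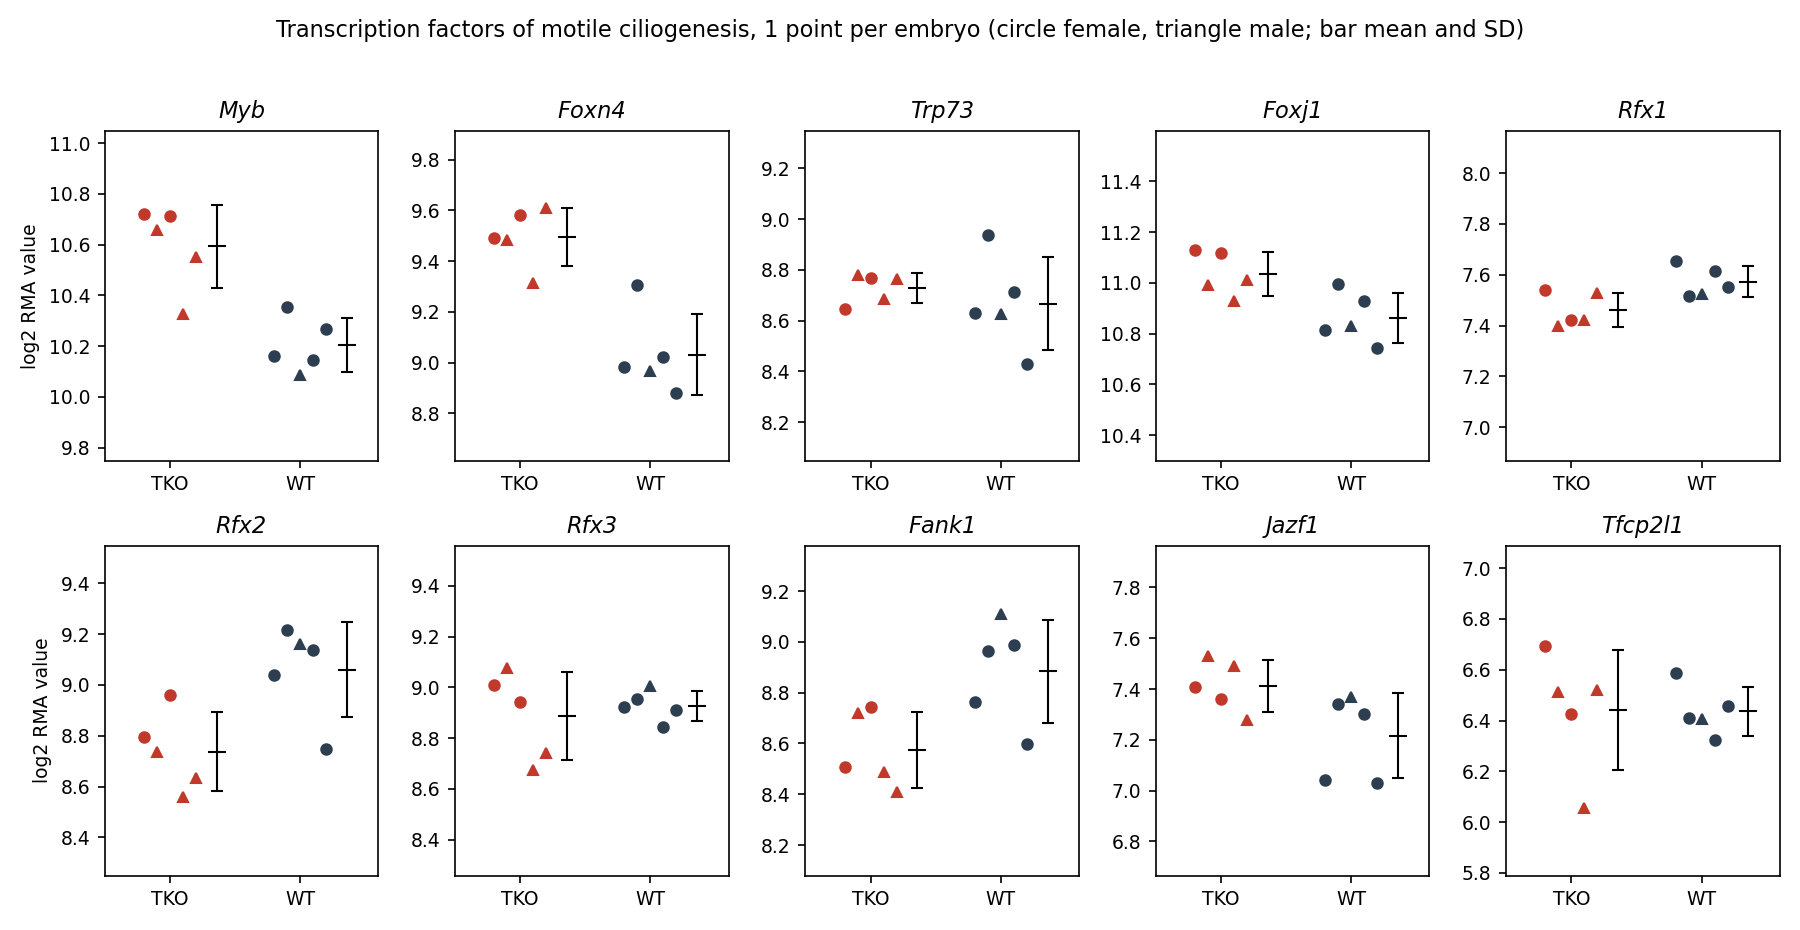
Log2 RMA value (vertical axis, 1.3 log2 units in every panel) of each factor in the 5 TKO and the 5 WT embryos, with circles for females and triangles for males and a bar for the mean and SD of each genotype. Foxn4 is the panel in which no TKO point overlaps a WT point, and in the Myb panel TKO 4 (10.33) lies just below WT 2 (10.35).

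The members that rose are given first. Myb, a DNA-binding factor that in mouse airways acts early in multiciliated differentiation and is lost again as cilia grow, was at 10.72, 10.66, 10.71, 10.33 and 10.55 in TKO 1 to 5, against 10.16, 10.35, 10.09, 10.14 and 10.27 in WT 1 to 5. Every TKO value but that of TKO 4 lay above all WT values. Its means were 10.59 ± 0.16 in TKO and 10.20 ± 0.11 in WT (SD, n = 5 each), and with sex in the model it rose by 0.46 ± 0.077 on the log2 scale (SE), 1.38-fold (limma adjusted p = 0.0062). A further probe set of Myb behaved alike: it read 9.47, 9.29, 9.43, 9.10 and 9.28 in TKO 1 to 5, against 8.95, 9.14, 8.71, 8.91 and 9.16 in WT 1 to 5. Its log2 change was 0.45 (limma adjusted p = 0.00935 over all probe sets with a single symbol), and again TKO 4 was the only TKO array within the WT range.

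Foxn4, a forkhead factor that works beside Foxj1 in multiciliated cells of Xenopus, was at 9.49, 9.48, 9.58, 9.31 and 9.61 in TKO 1 to 5, against 8.98, 9.30, 8.97, 9.02 and 8.88 in WT 1 to 5. The genotypes did not overlap, though the lowest TKO array (TKO 4) and the highest WT array (WT 2) were 0.011 apart. It rose 1.41-fold, with means of 9.50 ± 0.12 in TKO and 9.03 ± 0.16 in WT (SD, n = 5 each), a log2 change of 0.49 ± 0.093 (SE) and a limma adjusted p of 0.0104. The exact two-sided permutation test gave p = 0.00794, the smallest that 5 arrays against 5 can give. The call was lost without TKO 3 (0.47, limma adjusted p = 0.0624) and without WT 3 (0.49, limma adjusted p = 0.083).

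Trp73 encodes p73, the relative of p53 that in mouse airways acts upstream of Foxj1. It was at 8.65, 8.78, 8.77, 8.68 and 8.76 in TKO 1 to 5, against 8.63, 8.94, 8.63, 8.71 and 8.43 in WT 1 to 5. All TKO arrays lay inside the WT range, and the log2 change was 0.061, with a 95% interval from -0.14 to 0.27 (limma adjusted p = 0.773). Trp73 is the only member that lies within 5 Mb of a targeted locus, that of Mir34a. Of 103 genes tested in that window 4.85% passed, against 5.42% of genes outside the windows of the 3 loci.

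Some lists of markers of other cell types leaned lower in TKO, and the direction depended in part on the sex term. In the model with sex, 0 of the 12 mesenchyme and 0 of the 10 muscle markers had a log2 change above 0 in limma. The medians were -0.39 and -0.80. At an unadjusted p below 0.05, 6 of the mesenchyme and 10 of the muscle markers were lower, against 1284 of 16635 genes tested. By plain group means 9 of the 12 mesenchyme and 10 of the 10 muscle markers were lower in TKO. Col3a1 of the mesenchyme list, Tnni2 and Tnnt3 of the muscle list and Tie1 of the endothelial list passed as lower, and they are named because the counts are small. Of 7 cartilage markers tested 4 were above 0 in the model and 5 were higher by group means. Of 7 glia markers 1 was above 0 and 7 were lower by group means. No cartilage or glia marker passed in limma.

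All 8 endothelial markers tested were below 0 in the model with sex, and 7 were lower by group means. Their log2 summed signal ran from 8.26 to 8.89 in TKO and from 8.39 to 9.07 in WT. Of the 9 leukocyte markers tested 7 were below 0 in the model but 4 were lower by group means, with a log2 summed signal from 9.14 to 10.19 in TKO and from 9.04 to 9.96 in WT. None of the leukocyte markers passed in limma, 0 at an unadjusted p below 0.05 as well, and the defining markers Ptprc and Cd3e did not pass the filter. Basal and secretory lists of the epithelium were read in the same way. Of 9 basal cell markers 8 were below 0 and 1, Ngfr, passed as lower (limma adjusted p = 0.0418), with a log2 summed signal from 11.97 to 12.78 in TKO and from 12.25 to 12.78 in WT. Of 11 secretory cell markers 8 were above 0 and none passed in limma. At an unadjusted p below 0.05, 4 of them were higher, against 2199 of 16635 genes tested. The log2 summed signal of the secretory markers ran from 12.69 to 12.93 in TKO and from 12.28 to 12.78 in WT. The part of the basal and secretory lists in the changes of the factors was not tested.

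A combined score of all lists of other tissues (glia, leukocyte, cartilage, muscle, endothelium and mesenchyme) was at -0.27, -0.049, -0.42, 0.16 and 0.16 in TKO 1 to 5, against 0.24, -0.35, 0.37, 0.18 and -0.030 in WT 1 to 5. By plain group means, without the sex term, it was lower in TKO by 0.17, and the genotypes overlapped (exact permutation p = 0.333). Within each sex the TKO arrays lay mostly lower. All TKO males lay below the WT male, WT 3 (0.37). Of the TKO females, TKO 3 (-0.42) lay below every WT female and TKO 1 (-0.27) below all but WT 2 (-0.35). A difference of the score with sex in the model was not computed. With this score added to the model the log2 change was 0.32 ± 0.090 for Myb (limma adjusted p = 0.167) and 0.35 ± 0.12 for Foxn4 (limma adjusted p = 0.238), and 87 genes passed in all, against 916 without it.

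Foxj1, the forkhead factor without which motile cilia do not form, was bright in both genotypes. It read 11.13, 10.99, 11.12, 10.93 and 11.01 in TKO 1 to 5, against 10.81, 10.99, 10.83, 10.93 and 10.75 in WT 1 to 5. Of the TKO arrays 3 lay above every WT array, and TKO 2 and TKO 4 lay inside the WT range. The means were 11.04 ± 0.086 in TKO and 10.86 ± 0.099 in WT (SD, n = 5 each). The log2 change of 0.21 ± 0.064 (SE) did not pass (limma adjusted p = 0.0784), with a 95% interval from 0.073 to 0.35. The exact permutation test of the means alone gave p = 0.0397.

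The RFX factors bind the X-box, a paired DNA element in front of ciliary genes. Rfx2 was at 8.80, 8.74, 8.96, 8.56 and 8.63 in TKO 1 to 5, against 9.04, 9.22, 9.16, 9.14 and 8.75 in WT 1 to 5. Apart from WT 5, every WT array lay above every TKO array. The log2 change of Rfx2 was -0.29 ± 0.11 (SE, limma adjusted p = 0.15), with a 95% interval from -0.52 to -0.052. It depended on the arrays kept, being -0.36 without WT 5 (limma adjusted p = 0.0238) and -0.16 without WT 3 (limma adjusted p = 0.585). Without WT 3, the only WT male, the change is that among females. Rfx3 spread more widely among TKO embryos, from 8.67 to 9.08, than among WT embryos, from 8.85 to 9.01, and the WT range lay inside that of TKO. Its log2 change was -0.020, with a 95% interval from -0.22 to 0.18 (limma adjusted p = 0.928), and the sign turned to 0.067 without WT 3. Rfx1, which is active in many tissues, lay between 7.40 and 7.54 in TKO and between 7.52 and 7.66 in WT, with a log2 change of -0.094 ± 0.068 (SE, limma adjusted p = 0.481) and a 95% interval from -0.24 to 0.055.

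Among the remaining factors, Fank1, a fibronectin and ankyrin repeat protein known from the testis, resembled Rfx2 in its pattern of values. It was at 8.51, 8.72, 8.74, 8.49 and 8.41 in TKO 1 to 5, against 8.76, 8.96, 9.11, 8.99 and 8.60 in WT 1 to 5. WT 5 was again the only WT array within the TKO range. The log2 change of Fank1 was -0.34 ± 0.11 (SE, limma adjusted p = 0.112), with a 95% interval from -0.58 to -0.088. It was -0.39 without WT 5 (limma adjusted p = 0.0379) and -0.20 without WT 3 (limma adjusted p = 0.498). Jazf1, a zinc finger protein, lay between 7.28 and 7.53 in TKO and between 7.03 and 7.37 in WT, with a log2 change of 0.15 (limma adjusted p = 0.39) and a 95% interval from -0.053 to 0.36. Tfcp2l1, of the CP2 and grainyhead family, lay between 6.05 and 6.70 in TKO and between 6.32 and 6.59 in WT, and TKO arrays stood at both ends of the range. Its log2 change was 0.059, with a 95% interval from -0.20 to 0.32 (limma adjusted p = 0.829). Labelled sex did not pass for any member in the same model: the male minus female differences ran from -0.18 for Myb to 0.10 for Jazf1 over the probe sets used for the test, with limma adjusted p of 0.632 or more.

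**Figure D2:**
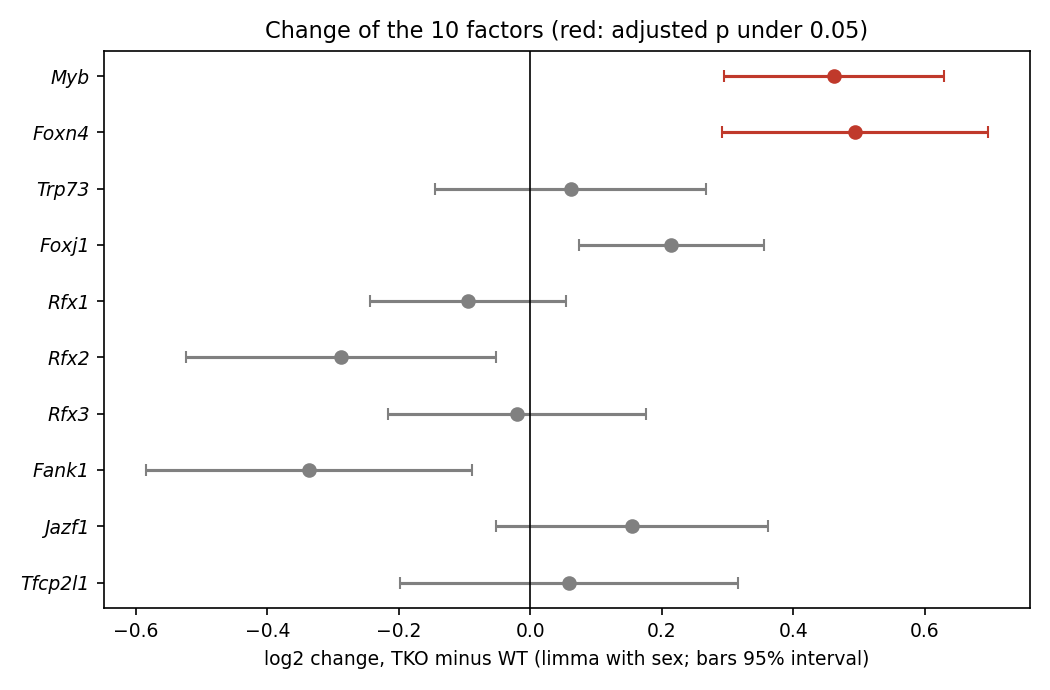
Log2 change of each factor, TKO minus WT (horizontal axis), from limma with sex in the model, with 95% intervals and red for an adjusted p below 0.05. Myb (0.46) and Foxn4 (0.49) are red; the intervals of Foxj1, Rfx2 and Fank1 also leave out 0 but their adjusted p is above 0.05.

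The change of every other gene was also set against that of Foxj1 on the same arrays, a comparison chosen after the values were seen. In this fit 18.5% of 16634 genes passed, 1.21% as higher and 17.3% as lower. Every gene in it is set against the log2 change of 0.21 of Foxj1 itself, so a lower call needs no decline of the gene. Of the 9 other factors 1 was called higher relative to Foxj1 and 3 were called lower. The value of Foxn4 minus that of Foxj1 was -1.54 ± 0.092 in TKO and -1.83 ± 0.084 in WT (SD, n = 5 each), so the change of Foxn4 exceeded that of Foxj1 by 0.28 ± 0.082 (SE, limma adjusted p = 0.0349). For Myb the excess was 0.25 and missed the threshold (limma adjusted p = 0.0571).

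Rfx2 and Fank1 separated furthest from Foxj1. Rfx2 minus Foxj1 lay between -2.38 and -2.16 in TKO and between -2.00 and -1.67 in WT, a difference of -0.50 ± 0.089 (SE, limma adjusted p = 0.00538). Fank1 minus Foxj1 lay between -2.62 and -2.27 in TKO and between -2.15 and -1.72 in WT, a difference of -0.55 ± 0.099 (SE, limma adjusted p = 0.00564). Neither pair of ranges overlapped, which also held for Rfx1 and Foxn4 and for 11.6% of all genes. For Rfx1 the ranges nearly touched, with TKO 5 at -3.485 and WT 2 at -3.478. The calls of Rfx2 and Fank1 relative to Foxj1 were kept in 12 of 14 alternative fits each, with differences from -0.58 to -0.41 for Rfx2 and from -0.65 to -0.46 for Fank1. They were lost in females only (limma adjusted p = 0.0798 and 0.0723) and once the non-epithelial score was added (limma adjusted p = 0.0703 and 0.0655). Rfx1 (-0.31, limma adjusted p = 0.0401) and Foxn4 kept their calls relative to Foxj1 in 4 of 14 fits each. An unequal change of this kind does not show which of the paired genes moved.

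**Figure D3:**
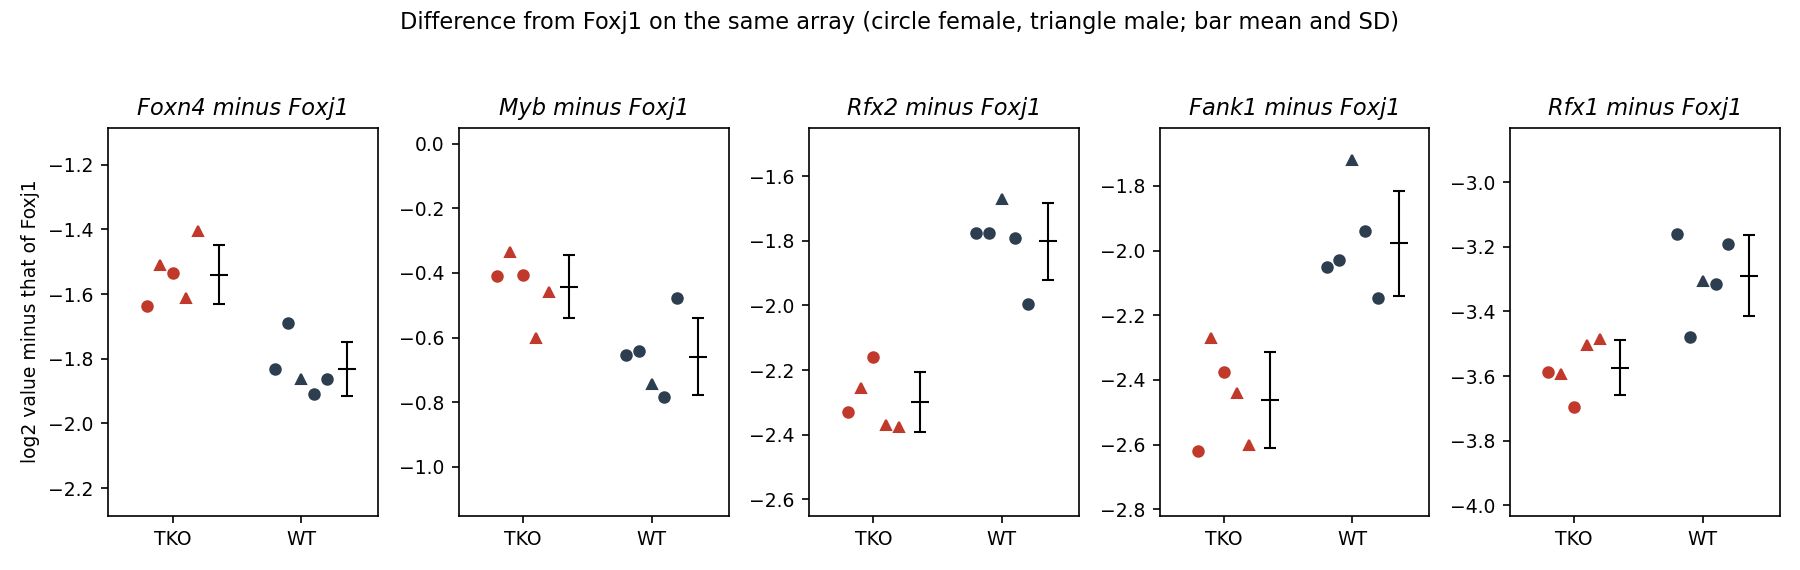
Log2 value of Foxn4, Myb, Rfx2, Fank1 and Rfx1 minus that of Foxj1 on the same array (vertical axis) in 5 TKO and 5 WT embryos, with circles for females, triangles for males and a bar for the mean and SD. TKO points lie above WT points for Foxn4, overlap them for Myb, and lie below them for Rfx2, Fank1 and Rfx1. For Rfx1 TKO 5 (-3.485) is just below WT 2 (-3.478).

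Most genes of a list on the start of the programme rose. The list held 9 tested genes, the geminin family, E2F4, E2F5 and their partners together with Ccno and Cdc20b of centriole amplification. Of these 7 rose, none fell and 2 did not pass, while 4.39% of all genes tested rose. The median log2 change of the list was 0.55. The list was chosen with earlier results of these data known. At an unadjusted p below 0.05, none of the 9 was lower by limma and 8 were higher, against 2199 of 16635 genes tested that were higher. Those with the smallest p were Cdc20b, a multiciliated-cell protein encoded around the Mir449 cluster (1.41), Gmnc, which starts the programme (1.55), Ccno, a cyclin-like protein of centriole amplification (0.76), and Tfdp2, a DNA-binding partner of E2F factors (0.53), with limma adjusted p of 4.8e-05, 5.56e-05, 0.000848 and 0.00516. Mcidas, named after its value was seen as the partner of Gmnc, also rose: it was 10.52 ± 0.084 in TKO and 10.08 ± 0.27 in WT (SD, n = 5 each), with a log2 change of 0.55 (limma adjusted p = 0.00724). Cdc20b, Ccno and Mcidas lie within 5 Mb of the Mir449 cluster. In that window 16.2% of 37 tested genes passed, these included, against 5.42% of genes outside the windows of the 3 loci. In the window of Mir34b it was 15.9% of 82. Leaving out Ccno and Cdc20b but keeping Mcidas, which lies in the same window, 5 of 7 rose. Gmnc and Tfdp2 lie outside the windows of the 3 loci. Without WT 3 the count that rose was 4 of 9, with females only 2 of 9, and once the non-epithelial score was added 3 of 9.

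The FOXJ1 target genes act after these factors. They were called about as often as all genes at an adjusted p below 0.05, but leaned lower at an unadjusted p below 0.05. Of 41 FOXJ1 target genes tested, which cover dyneins, radial spokes, tektins and other axonemal parts, 1 rose, 1 fell and 39 did not pass, a share of 4.88% called against 5.51% of all genes, and the median log2 change was -0.075. Stk33, a kinase, rose by 0.46 on the log2 scale (limma adjusted p = 0.0196), and Drc3, a subunit of the nexin-dynein regulatory complex, fell by 0.39 (limma adjusted p = 0.0441). Hydin, of the central pair of microtubules, had a log2 change of -0.60 and Drc1 one of -0.48 (limma adjusted p = 0.0646 and 0.0684). At an unadjusted p below 0.05, 3 of the 41 were higher and 14 lower, 41.5% in all, against 20.9% of all genes. Among all 16635 genes tested 2199 were higher and 1284 lower at that threshold. The count of calls depended on single arrays: without WT 5 it was 11, of which 10 were lower, and without WT 3 or TKO 3 it was 0 in limma (4 and 16 at an unadjusted p below 0.05). No lower call was left without WT 2, WT 3, WT 4 or any 1 of the TKO arrays. WT 5 had the lowest mean level of this list of all arrays and the highest level of olfactory neuron markers, whose log2 summed signal ran from 9.28 to 11.52 in TKO and from 9.49 to 11.93 in WT. Of 11 olfactory markers none passed in limma, and 0 did at an unadjusted p below 0.05; their part in the count was not tested.

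Of 18 RFX target genes of ciliary transport and the ciliary base, none passed in limma. At an unadjusted p below 0.05, 3 were higher and 5 lower, 44.4% in all, against 20.9% of all genes. The median log2 change of the RFX target genes was -0.034. Those with the smallest p were the intraflagellar transport genes Ift57 (-0.32) and Ift88 (-0.33) and the BBSome genes Bbs4 (0.45) and Bbs9 (0.28), with limma adjusted p from 0.0678 to 0.138. Relatives of the factors within their protein families did not pass either: of 16 tested none did in limma, and the median was 0.010. At an unadjusted p below 0.05, 1 relative was higher and 2 were lower, 18.8% in all, near the 20.9% of all genes. Mybl2, the relative of Myb in dividing cells, had a log2 change of -0.38 and Grhl2, a grainyhead factor of epithelia, one of -0.21 (limma adjusted p = 0.0631 and 0.0702). Foxn2 (0.16) and Foxa2 (0.21), forkhead relatives, followed with limma adjusted p of 0.228 and 0.244.

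**Figure D4:**
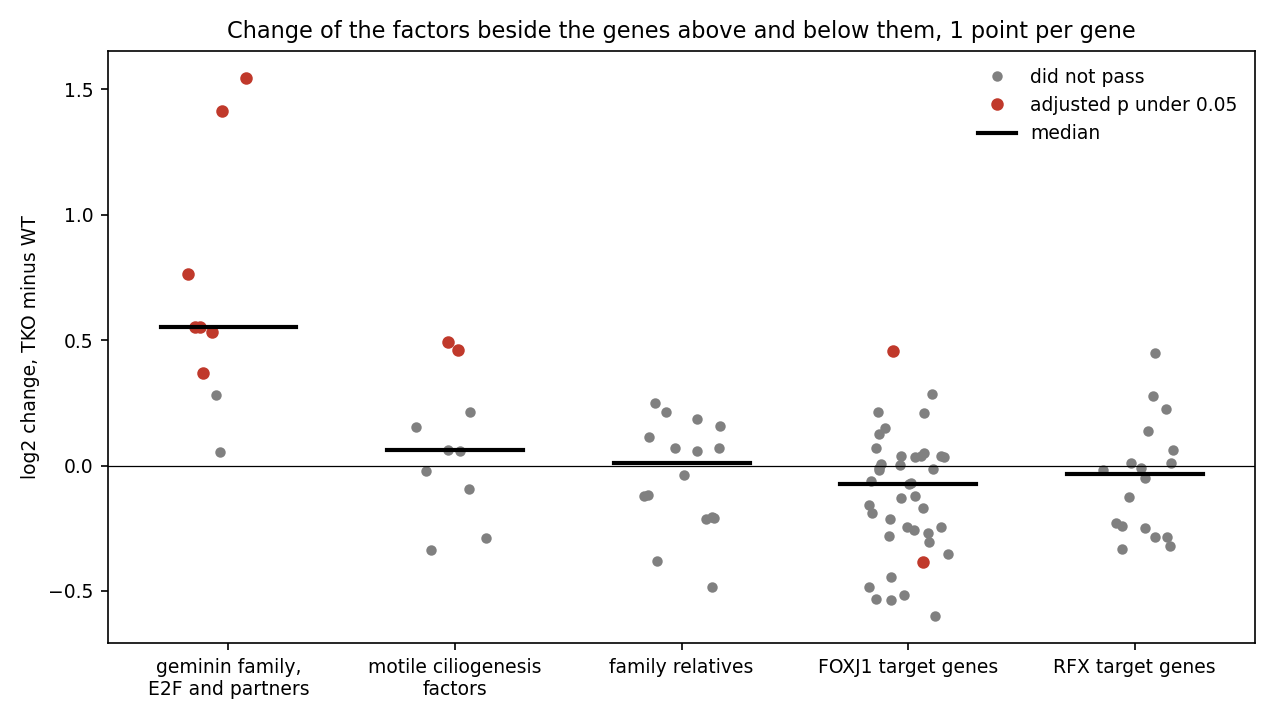
Log2 change, TKO minus WT (vertical axis), of every tested gene of the geminin and E2F list (with Ccno and Cdc20b), the 10 factors, their family relatives, FOXJ1 target genes and RFX target genes, with 1 point per gene, red for an adjusted p below 0.05 and a black line at the median. The medians are 0.55, 0.06, 0.01, -0.075 and -0.034 in that order.

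Upstream sequence was read for 9 of the 10 members in RefSeq (GRCm38.p6), with 11 windows. The source used held no window for Foxj1, so it was not searched. The 250 bases before the start of Myb and Foxn4, the members that rose, and of Rfx2 and Fank1, which parted most from Foxj1, are shown with motif matches in capitals. The windows are chr10:21160985-21161234 (minus strand) for Myb, chr5:114273762-114274011 (minus strand) for Foxn4, chr17:56831009-56831258 (minus strand) for Rfx2 and chr7:133776641-133776890 (plus strand) for Fank1.
Myb: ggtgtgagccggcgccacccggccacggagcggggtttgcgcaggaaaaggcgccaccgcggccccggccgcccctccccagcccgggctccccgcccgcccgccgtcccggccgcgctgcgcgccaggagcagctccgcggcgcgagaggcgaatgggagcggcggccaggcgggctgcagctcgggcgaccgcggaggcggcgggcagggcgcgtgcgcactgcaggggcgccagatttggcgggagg
Foxn4: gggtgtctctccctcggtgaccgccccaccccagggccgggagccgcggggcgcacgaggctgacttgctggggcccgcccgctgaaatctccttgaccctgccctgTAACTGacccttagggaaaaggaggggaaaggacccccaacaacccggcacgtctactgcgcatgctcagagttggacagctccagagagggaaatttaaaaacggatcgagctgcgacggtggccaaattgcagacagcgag
Rfx2: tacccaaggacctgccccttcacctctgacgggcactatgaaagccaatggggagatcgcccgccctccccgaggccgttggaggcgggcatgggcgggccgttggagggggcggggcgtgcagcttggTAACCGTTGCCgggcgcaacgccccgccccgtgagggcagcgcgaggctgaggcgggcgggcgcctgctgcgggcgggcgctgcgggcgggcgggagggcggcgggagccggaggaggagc
Fank1: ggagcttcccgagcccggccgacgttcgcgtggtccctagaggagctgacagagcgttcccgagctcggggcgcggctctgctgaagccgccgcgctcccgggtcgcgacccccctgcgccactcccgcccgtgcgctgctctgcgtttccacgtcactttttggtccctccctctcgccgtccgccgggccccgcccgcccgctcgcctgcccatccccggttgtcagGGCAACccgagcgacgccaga
The capitals mark TAACNG, a MYB motif, and GTTGCC, the core of the X-box, on either strand. In Rfx2 a TAACNG match and a GTTGCC match overlap by 1 base. TAACNG was found upstream of Foxn4, Rfx2 and Jazf1, 3 of 9 members, and in 19.8% of all 32851 windows of this length, and GTTGCC was found upstream of Rfx2 and Fank1 and in 10.4% of all windows. The full X-box, searched by its consensus on both strands (0.767% of windows), the forkhead motif GTAAACA (3.17%) and the E2F motif TTTNNCGC (4.28%) had no match in the 9 members. The E2F motif spelled GCGGGAA (3.82%) was found for Trp73 only. Each motif was searched only as spelled, with N for any base. Near matches, such as tttggcgggagg at the end of the Myb window for the E2F spellings, were not counted. The share of G and C was 81.2% for Myb, 62.8% for Foxn4, 76.0% for Rfx2 and 73.6% for Fank1, against a median of 52.4% over all windows.

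The genes whose values followed each factor most closely were taken as those with the smallest root mean square difference between centred log2 values over the 10 arrays. For Foxj1 these were Wwtr1, Cfap20dc, Tcte2, Gdpd1 and Urod, with differences from 0.052 to 0.060, against an SD of Foxj1 itself of 0.13. For Myb they were Zc3h7a, Bccip, Phospho2, Ccnb2 and 2700049A03Rik, with differences from 0.053 to 0.059 against an SD of 0.24. Around Foxn4, Med25 (0.067) was closest, followed by Spn, Spout1, P2rx7 and Hspa13 at 0.088 to 0.093, against an SD of 0.28.

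**Figure D5:**
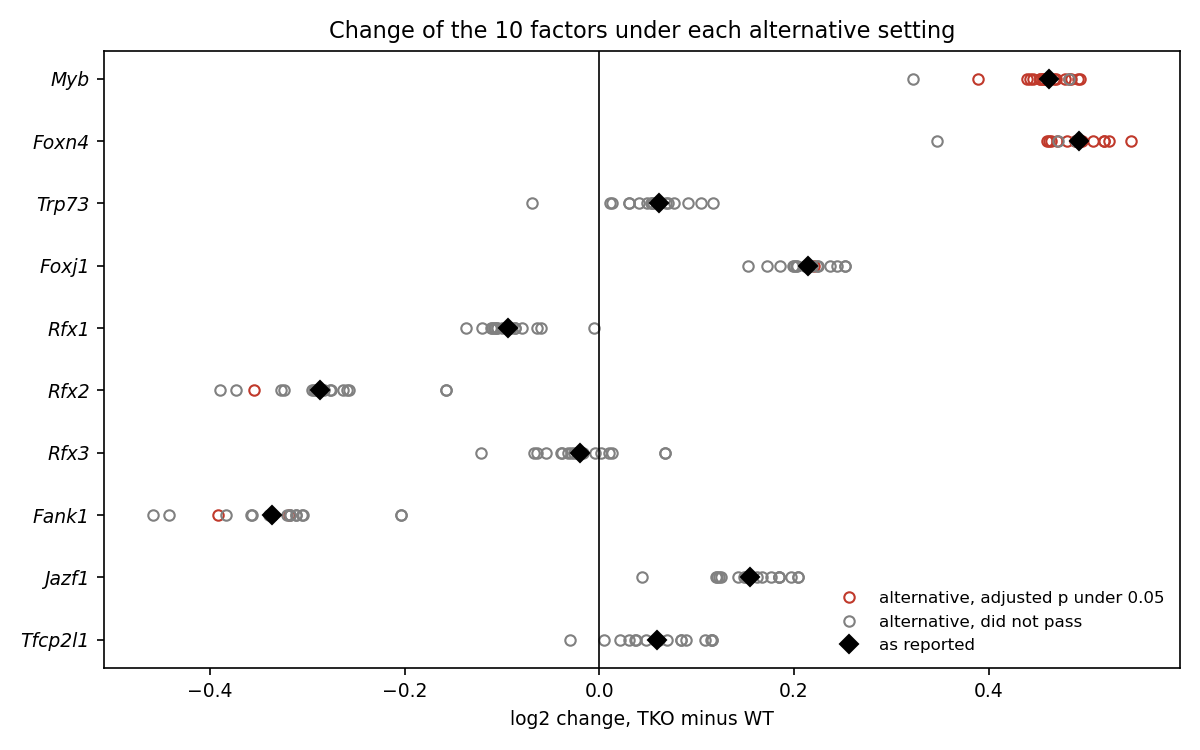
Log2 change of each factor, TKO minus WT (horizontal axis), as reported (black diamond) and under each of 23 alternative settings (open circles, red where the adjusted p is below 0.05). Myb and Foxn4 stay above 0 in all of them, from 0.32 to 0.49 and from 0.35 to 0.55, and Rfx3 takes both signs.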

How the data were processed

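The authors deposited log2 values made by RMA in the Affymetrix Expression Console, per the submitters' processing notes. The sources used here do not give its version. All values lay between 1.50 and 13.7, and no detection calls were used. Of 41345 probe sets, 23521 had 1 gene symbol. Each of 22180 genes was taken from its probe set of highest mean over all arrays, and genes with a mean below the 25th percentile were left out, which left 16635. TKO was set against WT by limma 3.58.1 under R 4.3.3 (genotype and labelled sex, variances moderated with an intensity trend, two-sided, Benjamini-Hochberg over all genes, threshold 0.05). Single values were also tested by exact permutation over the 252 assignments of arrays. The fit was tested on simulated arrays. All 10 members were named, up to 4 genes of each pathway list by smallest p, and the 5 genes closest to Foxj1, Myb and Foxn4. The members and lists were chosen with earlier results of these data known. Listed genes with no probe set named here were not analysed here. Precision is limited by the number of arrays, 5 per genotype. The alternatives were other models, filters, scalings and summaries, females only, each array left out, and a non-epithelial marker score added to the model.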

Additional observations from a re-analysis of the deposited data

How the results depend on the processing

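The number of members that passed was 2 in limma with all arrays, 0 with females only and 0 once the non-epithelial score was added to the model (3 and 4 at an unadjusted p below 0.05), and from 1 (without TKO 3 or WT 3) to 4 (without WT 5, where Rfx2 and Fank1 also passed) when arrays were left out in turn. Over all genes the counts were 916, 56, 87 and from 210 to 1284. Myb missed the threshold with females only (0.48, limma adjusted p = 0.0678) and with the score, and over all 23 alternatives its adjusted p ran from 0.00301 to 0.167; that of Foxn4 ran from 0.00341 to 0.238. The fit with females only holds fewer arrays, and its log2 changes are those of the fit without WT 3, the only WT male. Rfx2 and Fank1 were at -0.16 and -0.20 with females only (limma adjusted p = 0.622 and 0.506). Array weights took Foxj1 just past the threshold (0.22, limma adjusted p = 0.0495). Rfx3 was at 0.010 with arrays centred on their medians, at 0.067 with females only and from -0.067 to 0.067 with arrays left out. Trp73 was at -0.069 with the score, and Tfcp2l1 ran from -0.031 to 0.12 with arrays left out. The cause of these moves was not tested. With the replicate number as a block 3 members passed, Fank1 as lower (limma adjusted p = 0.0441), and 1053 genes; 1 of 5 same-numbered pairs correlated above 0.1 in their deviations from the group means, and 2 of 10 arrays correlated best with their own number, so the numbers were not taken as pairs. The FOXJ1 target genes that passed numbered 2 with all arrays and from 0 to 11 over the alternatives (8 with the block), and the geminin and E2F genes 7 with all arrays and 2 at the fewest (females only). Centring the arrays moved the median change of all genes from -0.00052 to 0.030.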
